A study of Mus musculus with 6 samples.

Results

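The genes described here encode the digestive enzymes of the lysosome, the proteins of its membrane and a pair of its regulators. They were chosen as a module of 41 gene symbols and looked up by symbol among the 24421 symbols of the deposited count table, and all 41 were found and had enough reads to be tested. RNA was sequenced from pooled cochlear explants, cultured pieces of the inner ear of wild-type mice taken at postnatal day 2, after the tectorial membrane, the modiolus and the early stria vascularis had been dissected away. Treated explants received 1 mM neomycin for 6 h after 12 h in culture, and stayed in culture for 5 more days with 10 μM EdU, a label of DNA synthesis. The control group was taken as explants cultured alongside without neomycin, since the labels name the groups but repeat 1 protocol, with neomycin, for all 6 libraries. There were 3 control and 3 neomycin libraries, each a pool of 6 to 8 cochleae, so that p-values measure the spread between pools. The libraries held 50471116 to 66068108 counts in all, and the 41 genes between 740 and 223044 counts each per library. A whole explant holds sensory hair cells (HCs), supporting cells (SCs), mesenchyme, neurons, glia, vessels and macrophages, and in such bulk RNA fewer cells of a type and less RNA per cell cannot be told apart.

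Lysosomes are acidic compartments in which hydrolases take apart proteins, glycans, glycosaminoglycans and lipids delivered by endocytosis, phagocytosis and autophagy. Most of the soluble hydrolases carry mannose 6-phosphate and are sorted by receptors that recognise it, the membrane is lined by heavily glycosylated proteins such as LAMP1 and LAMP2, and a proton pump, the V-ATPase, keeps the lumen acidic. The transcription factor TFEB and its relatives bind short E-box-like motifs in the promoters of many of these genes. Aminoglycosides such as neomycin are taken up by HCs and gather in their lysosomes, and the macrophages that clear dying cells are rich in lysosomes.

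Because the TFEB motif is a known sequence feature of this gene family, the promoters were read first. RefSeq windows of 300 bases, from 250 before to 50 after the annotated start (GRCm38.p6), were at hand for 36 of the 41 genes, and 2 palindromic motifs were searched in them, each reading alike on both strands: TCACGTGA, the core of the TFEB-bound CLEAR element, and CACGTG, the shorter E-box that lies inside it. The longer motif was found in 5 of the 36 genes with a window (13.9%), against 1.46% of 17224 genes of the table with a window. The shorter motif was found in 13 (36.1%), against 9.17%. The 5 genes with the longer motif are given here as the bases upstream of the start that hold it, 5′ to 3′ on the strand of the gene, with the motif in capitals. They encode a membrane protein lost in Batten disease (Cln3, chr7:126583311-126583398, minus strand), the protective protein cathepsin A (Ctsa, chr2:164833720-164833772, plus strand), cathepsin D (Ctsd, chr7:142387879-142387966, minus strand), α-galactosidase A (Gla, chrX:134601186-134601255, minus strand) and the calcium channel TRPML1 (Mcoln1, chr8:3500433-3500518, plus strand).
Cln3: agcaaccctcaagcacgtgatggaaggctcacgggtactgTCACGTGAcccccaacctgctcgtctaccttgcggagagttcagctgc
Ctsa: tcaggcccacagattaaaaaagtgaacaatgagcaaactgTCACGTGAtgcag
Ctsd: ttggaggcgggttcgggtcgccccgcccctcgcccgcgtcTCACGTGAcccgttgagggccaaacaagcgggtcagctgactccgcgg
Gla: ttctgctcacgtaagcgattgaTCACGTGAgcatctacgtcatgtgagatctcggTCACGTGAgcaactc
Mcoln1: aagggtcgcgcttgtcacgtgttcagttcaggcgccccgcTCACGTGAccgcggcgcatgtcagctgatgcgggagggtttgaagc

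After neomycin, 11 of the 41 lysosomal genes rose, 1 fell and 29 did not pass an adjusted p-value of 0.05, by the quasi-likelihood test of edgeR with Benjamini-Hochberg adjustment over the 15988 genes tested. The genes that rose were the proteases Ctsk and Ctsz, the glycosidases Fuca1, Hexa and Glb1, the heparan sulfate enzyme Naglu, the lipid-handling proteins Gm2a, Npc2 and Ppt1, the tetraspanin Cd63 and the lysosomal regulator Grn, and their folds ran from 1.17 to 1.54. The cholesterol transporter Npc1 was the gene that fell. The share of the genes called in either direction, 29.3%, was near the 29.0% of all genes tested. By direction the split was 26.8% higher against a background of 12.9%, and 2.44% lower against 16.1%. With the further demand of a fold over 1.5, only Ctsk was left among the higher genes (2.44% against 2.24% of all genes) and 0 genes among the lower ones (background 6.60%). None of the 5 genes with the TCACGTGA core printed above was called in this fit. Of the 11 genes that rose, all with a promoter window, 2 (Glb1 and Naglu) held CACGTG, as did 11 of the 25 uncalled genes with a window. The median log2 fold change was 0.13 over the 5 genes with the longer motif, 0.15 over the 13 with CACGTG and 0.15 over the 23 with a window and no CACGTG.

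**Figure D1:**
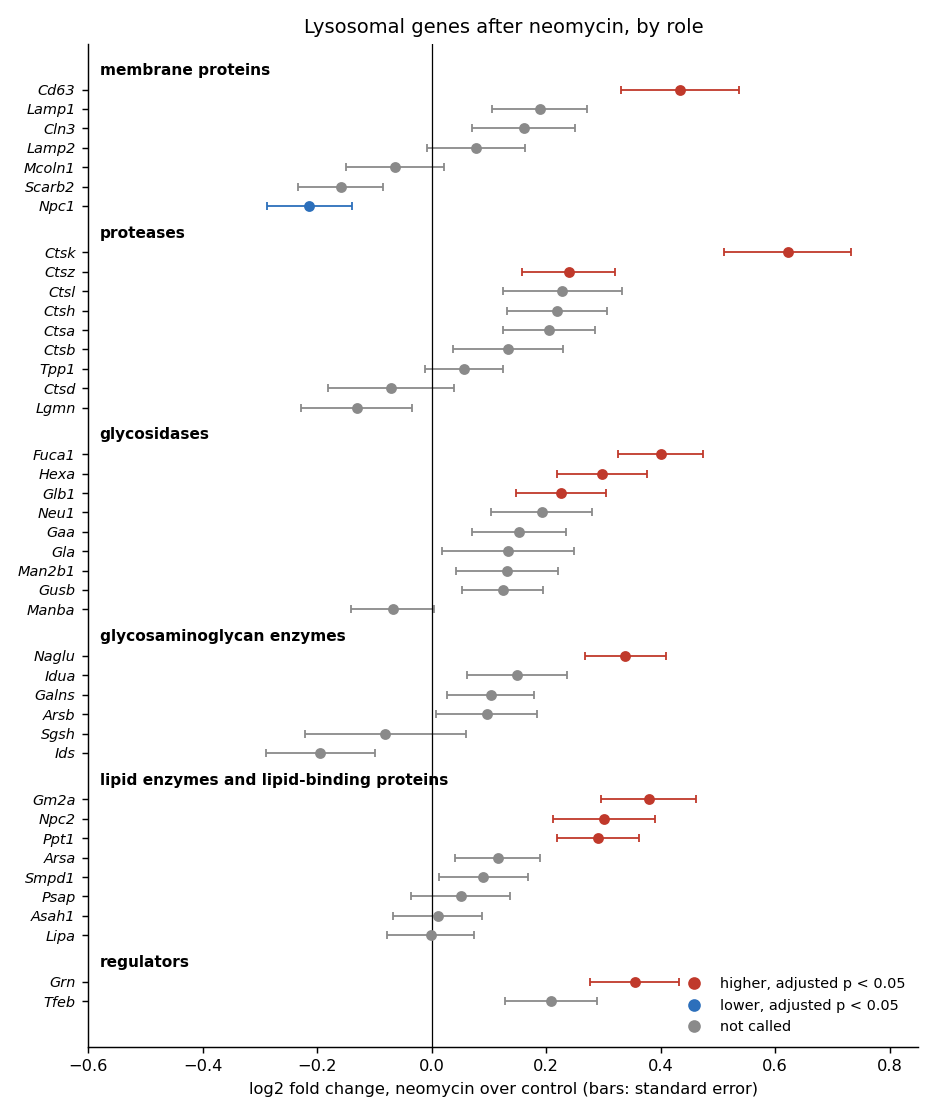
Log2 fold change of each of the 41 lysosomal genes, neomycin over control, grouped by role, with the standard error as a bar and genes past an adjusted p-value of 0.05 in colour. The 11 genes in red rose and Npc1 fell, and the fold changes ran from -0.21 to 0.62, with a median of 0.13 that became -0.04 when libraries were scaled to length-normalised totals. That scaling moved the median of all genes to -0.19.

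Log2 fold changes were small and mostly positive, above 0 for 32 genes and below 0 for 9, with a median of 0.13 against -0.00 over all genes tested. Scaling the libraries to totals of length-normalised counts moved the median of all genes to -0.19 and turned that of the lysosomal genes to -0.04, with 3 genes higher (Ctsk, Cd63 and Fuca1) and 4 lower (Lgmn, Npc1, Scarb2 and Ctsd). These were 7.32% and 9.76% of the lysosomal genes, against 3.52% higher and 26.9% lower of all genes tested. Relative to the median of all genes, the lysosomal median stood at 0.14 under both scalings. The second scaling changes the library totals only and so shifts all genes nearly alike. A median relative to all genes could therefore not move, and its agreement is no separate check. Library by library, the median level of the 41 genes relative to the control mean, on the log2 scale, was -0.01, -0.04 and 0.07 in the controls and 0.15, 0.17 and 0.12 after neomycin. Thus the groups did not overlap on this median, but the gap to control 3 was small. Control 3 was the highest control for 28 of the 41 genes. Taken gene by gene, all 3 neomycin libraries lay above all 3 controls for 16 genes (39.0%, against 21.0% of all genes tested), lay below them for 1 (2.44%, against 22.5%) and overlapped with them for 24. Leaving out 1 library at a time gave 6 to 16 higher genes, with 6 without control 2 or without neomycin 2, 7 without neomycin 3 and 16 without control 3. The share of all genes tested that were higher was then 6.56% without control 2, 6.22% without neomycin 2, 7.40% without neomycin 3 and 15.9% without control 3.

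Marker levels of other cells also differed between the groups. The 16 macrophage markers summed to 325 to 398 CPM (counts scaled to a common library size) in the controls and 438 to 526 CPM after neomycin, with 9 higher, 1 lower and none at 0 in a library, and a median log2 fold change of 0.44. The 15 SC markers summed to 8343 to 9165 CPM in the controls and 10075 to 10475 CPM after neomycin, with 3 higher and 5 lower. Most of that rise came from Epyc, a matrix proteoglycan whose mean was 5531 ± 249 CPM in the controls and 6385 ± 203 CPM after neomycin (adjusted p = 0.132), and from S100a1, at 1561 ± 216 and 2144 ± 126 CPM. The other 13 SC markers summed to 1683 ± 85.6 and 1800.0 ± 104 CPM (SD, n = 3 a group), and the lower ones were Fgfr3, Prox1, Lfng, Jag1 and Ngfr. The HC markers, the check of the insult, summed to 756 to 924 CPM and 169 to 214 CPM, and 19 of 20 were lower. Of the other marker lists, 2 mesenchymal markers were higher and 5 lower of 14, 2 neuronal ones were higher and 4 lower of 12, 1 glial marker was higher and 2 lower of 10, 7 of 10 endothelial markers were lower, and 2 of 6 melanocyte markers were lower. For all genes tested the shares were 12.9% higher and 16.1% lower. The part of these markers in the lysosomal values was not tested. Fold changes also followed transcript length over the whole table: the median log2 fold change was 0.24 in the shortest of 4 equal classes of transcript length and -0.22 in the longest. The lysosomal genes had a median transcript length of 2560 bases against 2811 over all genes tested. With that trend removed, 11 were again higher and 1 lower, while 8.30% of all genes were higher and 11.4% lower, and 8 of the 12 lysosomal genes called before still passed. Cd63, Npc1, Ctsz and Glb1 no longer passed, at log2 fold changes of 0.15, -0.03, 0.04 and 0.18, while Ctsa (0.23, adjusted p = 0.0307), Ctsb (0.29, adjusted p = 0.0428) and Gaa (0.21, adjusted p = 0.0429) were called higher and Lgmn (-0.23, adjusted p = 0.0475) lower.

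Within the membrane proteins, 1 of 7 rose and 1 fell, and the median log2 fold change was 0.08. These shares of 14.3% each stood against 12.9% higher and 16.1% lower of all genes tested. Cd63 (gene span in GENCODE chr10:128900989-128912822, mm10, as for the genes below) encodes a tetraspanin of late endosomes, lysosomes and exosomes. Its normalised level was 456, 521 and 571 CPM in control replicates 1, 2 and 3, and 618, 729 and 742 CPM in the neomycin replicates. Every neomycin library exceeded the highest control, and the log2 fold change was 0.43 ± 0.10 (SE, adjusted p = 0.00873). This call was lost without neomycin 2 (adjusted p = 0.0523) and after the correction for transcript length, where the log2 fold change was 0.15 (adjusted p = 0.117).

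Npc1 encodes the large membrane protein that passes cholesterol out of the lysosome, and Npc2, described with the lipid proteins, the soluble carrier that hands cholesterol to it. Npc1 measured 52.7, 50.5 and 51.1 CPM in the controls and 47.5, 41.7 and 43.9 CPM after neomycin. All treated libraries lay below the lowest control, by a log2 fold change of -0.21 ± 0.07 (SE, adjusted p = 0.0456). The call was a weak one: it was absent with DESeq2 (adjusted p = 0.0531), with the size factors of DESeq2 or upper quartile scaling in edgeR and with no filter on low counts, and after the length correction the log2 fold change was -0.03 (adjusted p = 0.82). Leaving out single libraries ended the call in 5 of 6 cases, the exception being neomycin 1, with an adjusted p of up to 0.202 without neomycin 2. Npc1 also overlaps Rmc1 on the opposite strand, and whether the counting used strand is not given in the sources used here.

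The other membrane proteins did not pass the test. Lamp1, a main glycoprotein of the lysosomal membrane, measured 721, 728 and 808 CPM in the controls and 853, 865 and 854 CPM after neomycin. Its treated libraries lay above the controls, at a log2 fold change of 0.19 (adjusted p = 0.106). Lamp2, its partner, which also takes part in chaperone-mediated autophagy, overlapped between groups at 0.08 (adjusted p = 0.528). For Cln3 the value was 0.16 (adjusted p = 0.204) with no overlap of the groups, and for the channel Mcoln1 it was -0.06 (adjusted p = 0.606). Scarb2, the receptor that carries β-glucocerebrosidase to lysosomes, showed a log2 fold change of -0.16 (adjusted p = 0.125).

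Among the 9 proteases 2 rose (22.2%) and none fell, with a median log2 fold change of 0.21. Of all genes tested 12.9% were higher and 16.1% lower. Ctsk (chr3:95499256-95509362) encodes cathepsin K, a collagen-degrading cysteine protease best known from osteoclasts. It had the largest fold change of the module, from 20.4, 19.5 and 23.3 CPM in the controls to 27.5, 36.2 and 33.5 CPM after neomycin. The groups were well apart, with a log2 fold change of 0.62 ± 0.11 (SE, adjusted p = 0.00194), and the call held with every single library left out. Removing the length trend brought it to 0.44 (adjusted p = 0.00521), under the fold of 1.5. Of 8 osteoclast markers, Calcr, Ocstamp and Dcstamp had at most 3 counts in any library. The list summed to 33.3 to 37.6 CPM in the controls and 23.8 to 26.0 CPM after neomycin. Of the 5 tested, 2 were lower and none higher, against 16.1% and 12.9% of all genes tested. Most of the marker sum came from the 2 lower ones, Nfatc1 (means of 19.2 and 12.6 CPM) and Itgb3 (11.3 and 7.28 CPM). Mmp9, Oscar and Tnfrsf11a were not called, at log2 fold changes of -0.17, 0.42 and 0.07. Whether osteoclasts had a part in the Ctsk values was not tested.

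Ctsz (chr2:174427493-174439039), which encodes the carboxypeptidase cathepsin Z, rose less. Its libraries held 225, 216 and 250.1 CPM and 255, 281 and 280.0 CPM. The lowest treated value stood just above the highest control, and the log2 fold change was 0.24 ± 0.08 (SE, adjusted p = 0.0429). It lost the call without control 1, control 2, neomycin 2 or neomycin 3, with an adjusted p of up to 0.171, and after the length correction it was at 0.04 (adjusted p = 0.66). Ctsz overlaps Nelfcd on the opposite strand.

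Of the proteases that did not pass, Ctsl, Ctsh and Ctsa came closest. Ctsl, cathepsin L, a broad cysteine endopeptidase, measured 936, 1111 and 1165 CPM and 1139.6, 1332 and 1292 CPM in control and treated libraries, which overlapped, at a log2 fold change of 0.23 (adjusted p = 0.118). Ctsh, an aminopeptidase, was at 0.22 (adjusted p = 0.0794). Ctsa, whose product also shields β-galactosidase and neuraminidase in a complex, was at 0.21 (adjusted p = 0.0725) with no overlap. Cathepsin B, a further cysteine protease, showed a log2 fold change of 0.13 (adjusted p = 0.32) for Ctsb. Tpp1, which trims tripeptides and is lost in a childhood neuronal ceroid lipofuscinosis, stood at 0.06 (adjusted p = 0.569). Lgmn, the asparaginyl endopeptidase that processes other cathepsins, was at -0.13 (adjusted p = 0.336). The aspartic protease cathepsin D held the most reads of the module, at 3232, 3496 and 3607 CPM in the controls and 2892, 3225 and 3719 CPM after neomycin. These overlapped widely, at a log2 fold change of -0.07 (adjusted p = 0.661).

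**Figure D2:**
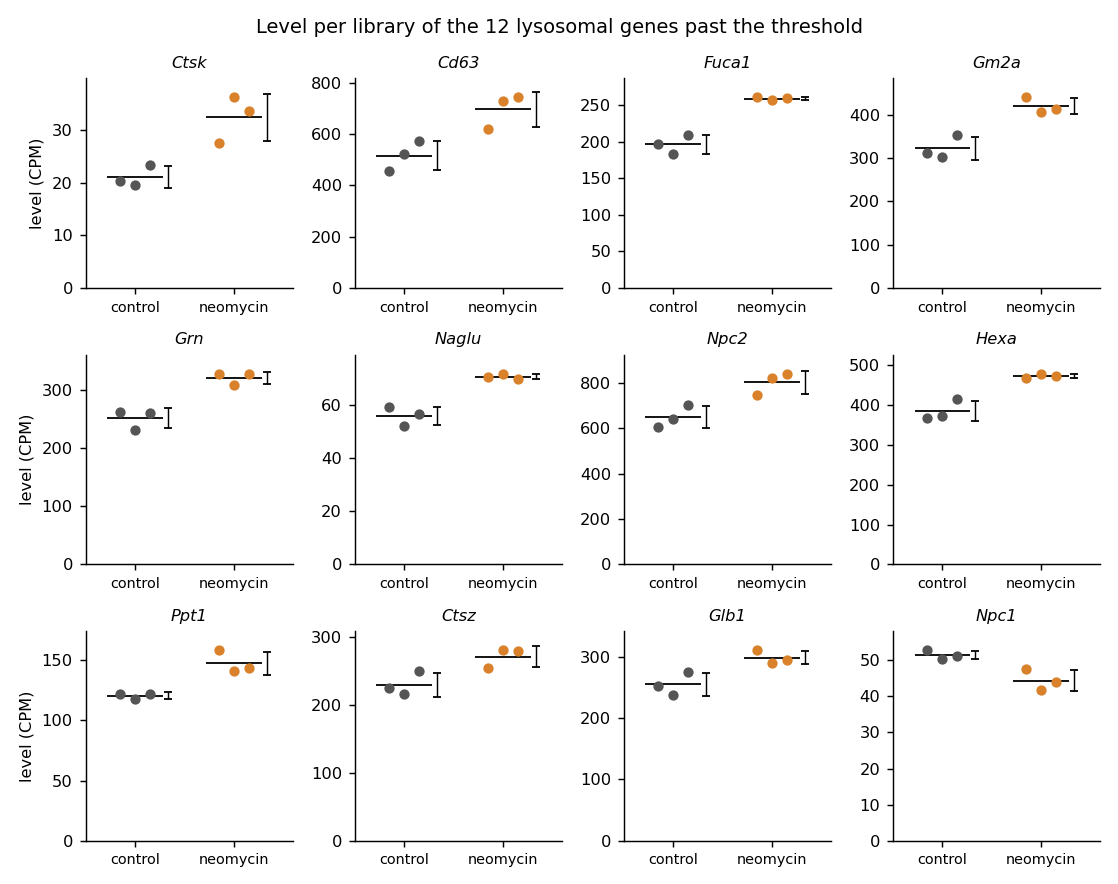
Normalised level (CPM, linear axis from 0) in each of the 3 control (grey) and 3 neomycin (orange) libraries for the 12 lysosomal genes past an adjusted p-value of 0.05, with the group mean as a line and the SD as a bar beside the points. For Ctsk the treated libraries sit between 27.5 and 36.2 CPM above a highest control of 23.3 CPM, and Npc1 is the gene whose treated libraries lie below the controls.

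The glycosidases remove sugars from glycoproteins and glycolipids, and 3 of 9 rose (33.3%) with none lower, at a median log2 fold change of 0.15. Over all genes tested the shares were 12.9% higher and 16.1% lower. Fuca1 (chr4:135920735-135940311), α-L-fucosidase, measured 197, 183 and 209 CPM in the controls and 261, 257 and 259.8 CPM after neomycin. The treated libraries were close to each other and clear of the controls, with a log2 fold change of 0.40 ± 0.07 (SE, adjusted p = 0.00236). That call held without any single library, after the length correction (0.37, adjusted p = 0.0011) and with the length-normalised scaling (0.22, adjusted p = 0.0497).

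Hexa (chr9:59539540-59565109) encodes the α subunit of β-hexosaminidase A, which with the GM2 activator degrades GM2 ganglioside and is lost in Tay-Sachs disease. Its level went from 368, 374 and 414 CPM to 468, 478 and 474 CPM. No treated library came down to the highest control, and the log2 fold change was 0.30 ± 0.08 (SE, adjusted p = 0.0147). The adjusted p rose to 0.072 without neomycin 2, and the threshold was also missed without control 2 and without neomycin 3. Hexa overlaps Tmem202 on the opposite strand.

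Glb1 (chr9:114401076-114474898) encodes β-galactosidase, the enzyme read by the senescence stain. The libraries held 252, 238 and 275 CPM in the controls and 309.9, 290.1 and 294 CPM after neomycin, again without overlap, and the log2 fold change was 0.23 ± 0.08 (SE, adjusted p = 0.0466). This gene sat at the threshold: it stayed past it with only control 3 left out, reached 0.187 without control 2, and after the length correction stood at 0.18 on the log2 scale with an adjusted p of 0.0654. Glb1 shares its strand and place with Tmppe, so that reads of the pair may have been split.

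The remaining glycosidases were not called. Neu1, the sialidase of the same complex as Glb1 and Ctsa, was at 0.19 (adjusted p = 0.12) on the log2 scale. Gaa, the acid α-glucosidase that breaks down glycogen, had 514, 465 and 519.8 CPM against 587, 535 and 543 CPM, without overlap, and a log2 fold change of 0.15 (adjusted p = 0.185). Log2 fold changes of the other 4 were 0.13 for Gla, 0.13 for the α-mannosidase Man2b1, 0.12 for the β-glucuronidase Gusb and -0.07 for the β-mannosidase Manba, with adjusted p-values from 0.207 to 0.512. All 4 overlapped between the groups.

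Enzymes of glycosaminoglycan breakdown, whose losses cause the mucopolysaccharidoses, showed 1 of 6 higher (16.7%) and none lower, with a median log2 fold change of 0.10. The shares of all genes tested were 12.9% higher and 16.1% lower. The higher gene of these 6 was Naglu (chr11:101070012-101077672), which cleaves N-acetylglucosamine from heparan sulfate. It measured 59.1, 52.2 and 56.5 CPM in the controls and 70.7, 71.8 and 69.8 CPM after neomycin. The treated libraries had an SD of 0.974 CPM and were all above the controls, with a log2 fold change of 0.34 ± 0.07 (SE, adjusted p = 0.00449), and the call held with each library left out.

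None of the other heparan sulfate enzymes passed the test. Ids, iduronate sulfatase, showed a log2 fold change of -0.19 (adjusted p = 0.144), Sgsh, the sulfamidase, one of -0.08 (adjusted p = 0.699), and Idua, α-L-iduronidase, one of 0.15 (adjusted p = 0.219). The sulfatases Arsb and Galns, which act on dermatan and keratan sulfate, were at 0.10 (adjusted p = 0.441) and 0.10 (adjusted p = 0.335). Sgsh was the lowest gene of the module per length, at 3.65 ± 0.632 CPM per kilobase of transcript in the controls (mean ± SD, n = 3).

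For lipid enzymes and lipid-binding proteins, 3 of 8 rose (37.5%), none fell and the median log2 fold change was 0.10. All genes tested were 12.9% higher and 16.1% lower. Gm2a (chr11:55098115-55113029) encodes the GM2 activator, which lifts the ganglioside out of the membrane for hexosaminidase A. Its libraries measured 313, 303 and 354 CPM and 441, 407 and 414 CPM. They were apart, with a log2 fold change of 0.38 ± 0.08 (SE, adjusted p = 0.00582), and every library left out in turn kept the call. Gm2a and Hexa, whose products act together, thus both rose.

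Npc2 (chr12:84754562-84773152) binds cholesterol in the lumen. It was at 608, 643 and 704 CPM in the controls and 746, 822 and 839.8 CPM after neomycin, apart by a log2 fold change of 0.30 ± 0.09 (SE, adjusted p = 0.025). The call was lost without control 1, control 2, neomycin 2 or neomycin 3, with an adjusted p of up to 0.107, but held after the length correction (0.34, adjusted p = 0.00789). Npc2 and Npc1 therefore moved in opposite directions, each without overlap of the groups, within the limits given above for Npc1.

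Ppt1 (chr4:122836242-122859175), palmitoyl-protein thioesterase, strips fatty acids from proteins and is lost in infantile neuronal ceroid lipofuscinosis. It measured 122, 117 and 122 CPM and 158, 141 and 143 CPM in the 2 groups. The controls were tightly grouped and all below the treated libraries, and the log2 fold change was 0.29 ± 0.07 (SE, adjusted p = 0.0106). Leaving out control 2 brought the adjusted p to 0.0514. Ppt1 overlaps Cap1 on the opposite strand.

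The sphingolipid enzymes and the acid lipase stayed uncalled, all with overlapping groups. Psap, the precursor of the saposins that help several of these hydrolases, was abundant at 1587, 1554 and 1655 CPM in the controls and 1728, 1628 and 1611 CPM after neomycin. Its log2 fold change was 0.05 (adjusted p = 0.694). Acid ceramidase (Asah1) was at 0.01 (adjusted p = 0.938), acid sphingomyelinase (Smpd1) at 0.09 (adjusted p = 0.411) and arylsulfatase A (Arsa) at 0.11 (adjusted p = 0.265). Lipa, which hydrolyses cholesteryl esters, was at -0.00 (adjusted p = 0.991).

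Of the regulators, Grn (chr11:102430315-102437048) rose. It encodes progranulin, a secreted and lysosomal glycoprotein whose loss impairs lysosomes and which microglia and macrophages make in quantity. The values were 261, 231 and 259 CPM and 327, 308 and 326 CPM. All treated libraries exceeded all controls, the log2 fold change was 0.35 ± 0.08 (SE, adjusted p = 0.00592) and the call held with each library left out. Grn overlaps Fam171a2 on the opposite strand. Tfeb, the transcription factor itself, was at 34.1, 32.4 and 36.0 CPM and 36.7, 41.6 and 40.2 CPM. The groups were apart, but its log2 fold change of 0.21 did not pass the test (adjusted p = 0.0693). Without control 3 or without neomycin 1 it did, with an adjusted p of 0.035 at the lowest.

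Per length of transcript the module spanned a wide range of levels. Ctsd was highest in the controls at 1619.7 ± 90.6 CPM per kilobase (mean ± SD, n = 3), followed by Psap at 604 ± 19.6, Ctsl at 543 ± 60.8 and Cd63 at 489.7 ± 54.9 CPM per kilobase. Psap and Ctsl, and Ctsl and Cd63, did not differ beyond their spread. After neomycin Cd63 stood at 662 ± 64.5 CPM per kilobase, above Ctsl at 636 ± 51.5 and Psap at 626 ± 23.9, all 3 within their spread. Ctsk, the gene with the largest fold among the 41, was a low one, at 13.9 ± 1.34 CPM per kilobase in the controls and 21.4 ± 2.96 after neomycin. Ctsd, Ctsb, Psap and Ctsl together held 51.6% of the summed CPM of the module in the controls and 49.0% after neomycin, and none of these 4 was called. The summed level was 14312, 14893 and 16029 CPM in the controls and 15803, 16448 and 16866 CPM after neomycin, so that control 3 exceeded neomycin 1 and the groups overlapped.

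**Figure D3:**
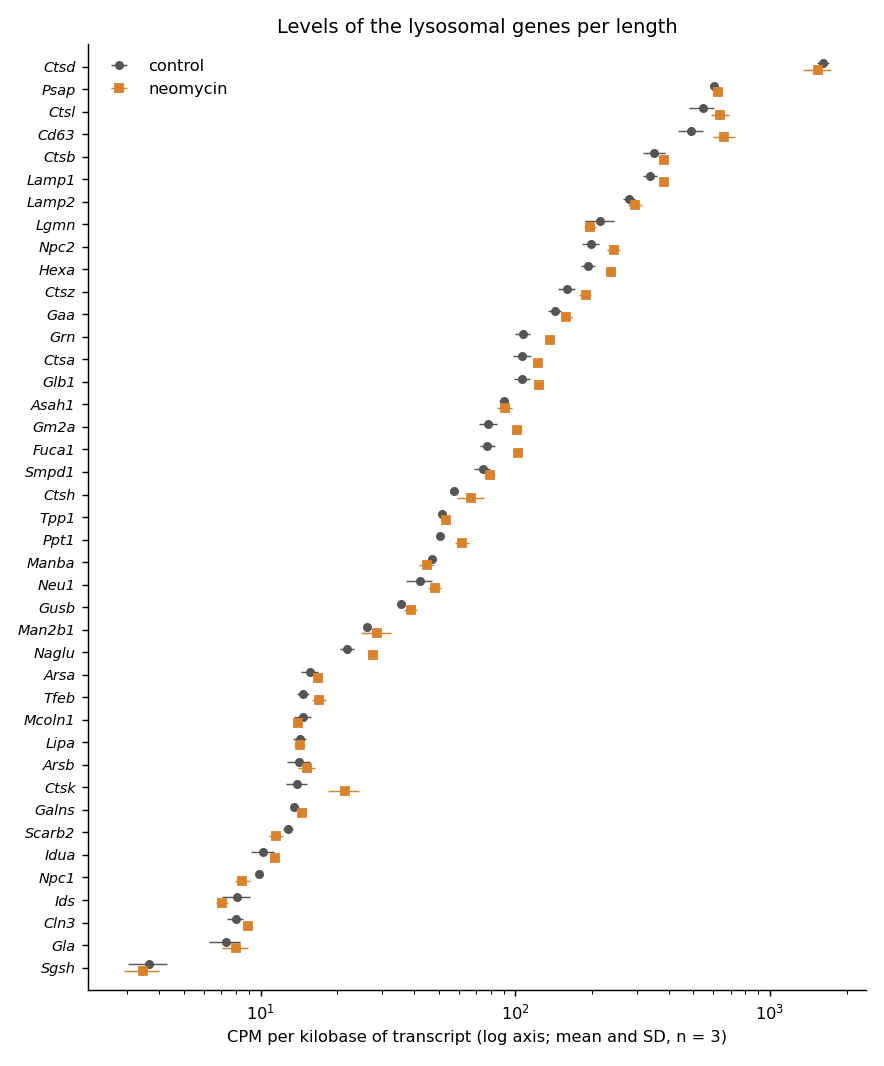
Level per length of the 41 lysosomal genes (CPM per kilobase of transcript, log axis) in control (grey circles) and neomycin (orange squares) explants, as the mean with the SD of 3 libraries, ordered by the control mean. Levels run from 1619.7 for Ctsd to 3.65 for Sgsh in the controls, and Ctsk shows the widest gap between the groups.

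Other lysosomal genes were looked up to see how the wider compartment behaved, with the same fit over all genes. Of 55 further lysosomal enzymes and membrane proteins tested, 14 were higher and 4 lower (25.5% and 7.27%, against 12.9% and 16.1% of all genes tested). Their median log2 fold change was 0.08. The highest were Rnaset2b, Gpnmb and Cd68. Gpnmb, a membrane glycoprotein of macrophages and melanocytes, went from 51.4 ± 2.41 to 82.9 ± 7.22 CPM (mean ± SD, n = 3), a log2 fold change of 0.69 (adjusted p = 9.76e-05). Cd68, a LAMP-related macrophage protein, went from 15.6 ± 1.97 to 23.4 ± 2.67 CPM, at 0.59 (adjusted p = 0.00308). Rnaset2b had 1.00 (adjusted p = 0.000792), but its near-identical copy Rnaset2a was at 0 counts in every library, so the split of reads between them is uncertain. The lowest were Plbd1, a phospholipase B-like protein, at -2.00 (adjusted p = 0.00256), the hyaluronidase Hyal1 at -0.99 (adjusted p = 0.00352) and Mcoln3, a relative of Mcoln1 that HCs use, at -0.43 (adjusted p = 0.00118). With length-normalised totals the list had 5 higher and 7 lower genes of 55, while 3.52% of all genes tested were higher and 26.9% lower.

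Of 14 sorting genes, which supply lysosomes with enzymes, 1 rose (7.14%) and 3 fell (21.4%), against 12.9% and 16.1% of all genes tested, with the mannose 6-phosphate receptor Igf2r at -0.49 (adjusted p = 0.000792), the receptor Sort1 at -0.27 (adjusted p = 0.0177) and Cln6, which helps enzymes leave the endoplasmic reticulum, at -0.29 (adjusted p = 0.0237). Gnptg, a subunit of the enzyme that starts the mannose 6-phosphate tag, was at 0.26 (adjusted p = 0.0376). Of 23 V-ATPase subunits 5 rose (21.7%) and 3 fell (13.0%), with a median log2 fold change of 0.12. The small subunits Atp6v1f and Atp6v1g1 had log2 fold changes of 0.38 (adjusted p = 0.00936) and 0.38 (adjusted p = 0.00799), and Atp6v0d1 one of 0.32 (adjusted p = 0.00739). The large subunits Atp6v0a2, Atp6v0a1 and Atp6v1a were at -0.32 (adjusted p = 0.0124), -0.26 (adjusted p = 0.0301) and -0.23 (adjusted p = 0.0264). None of these 6 subunits passed once the length trend was removed. Fewer of the sorting genes were then called as well. With length-normalised totals 0 genes were higher and 5 lower in each of these lists. The shares of all genes tested were then 3.52% higher and 26.9% lower.

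Genes of the TFEB relatives and of nutrient sensing at the lysosome split evenly, 5 higher and 5 lower of 21 (23.8% each), with a median log2 fold change of 0.01. The higher ones were led by Lamtor4 at 0.53 (adjusted p = 0.000792), Rheb at 0.38 (adjusted p = 0.0106) and Lamtor5 at 0.37 (adjusted p = 0.0104), which belong to the platform that brings mTORC1 to the lysosome and switches it on. Among the lower ones were Mtor, the kinase itself, at -0.45 (adjusted p = 0.00278), its inhibitor Tsc1 at -0.37 (adjusted p = 0.00904) and its partner Rptor at -0.32 (adjusted p = 0.0234). After the length correction Lamtor5, Mtor, Tsc1 and Rptor no longer passed. Of 37 autophagy genes 4 rose and 3 fell, with a median of -0.02. These shares of 10.8% and 8.11% were both below those of all genes tested, 12.9% and 16.1%. Gabarap, a ubiquitin-like protein of the autophagosome, was at 0.39 (adjusted p = 0.00988), and Atg3 and Atg7, the enzymes that attach it to lipid, were at 0.29 (adjusted p = 0.00835) and 0.28 (adjusted p = 0.00903). Its relative Gabarapl1 was at -0.32 (adjusted p = 0.0127), the lipid transfer protein Atg2b at -0.43 (adjusted p = 0.00227) and the kinase-complex subunit Uvrag at -0.28 (adjusted p = 0.019). Fewer autophagy genes were called after the length correction. Of the 30 genes named from the related lists, 16 lost the call with that correction, sorting and autophagy genes among them. With length-normalised totals the split was 1 higher and 7 lower for nutrient sensing, and 1 and 10 for autophagy. Under that scaling 3.52% of all genes tested were higher and 26.9% lower.

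Of 6 inhibitors of lysosomal proteases tested, 1 rose and 1 fell (16.7% each, against 12.9% higher and 16.1% lower of all genes tested). Cst3 encodes cystatin C, a secreted inhibitor of cysteine cathepsins that macrophages and glia make in quantity. Its level was 611 ± 87.8 CPM in the controls and 934 ± 75.2 CPM after neomycin, or 0.61 (adjusted p = 0.00184) on the log2 scale. The serpin Serpina3n fell from 9.53 ± 2.52 to 3.98 ± 0.537 CPM, at -1.25 (adjusted p = 0.000742).

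**Figure D4:**
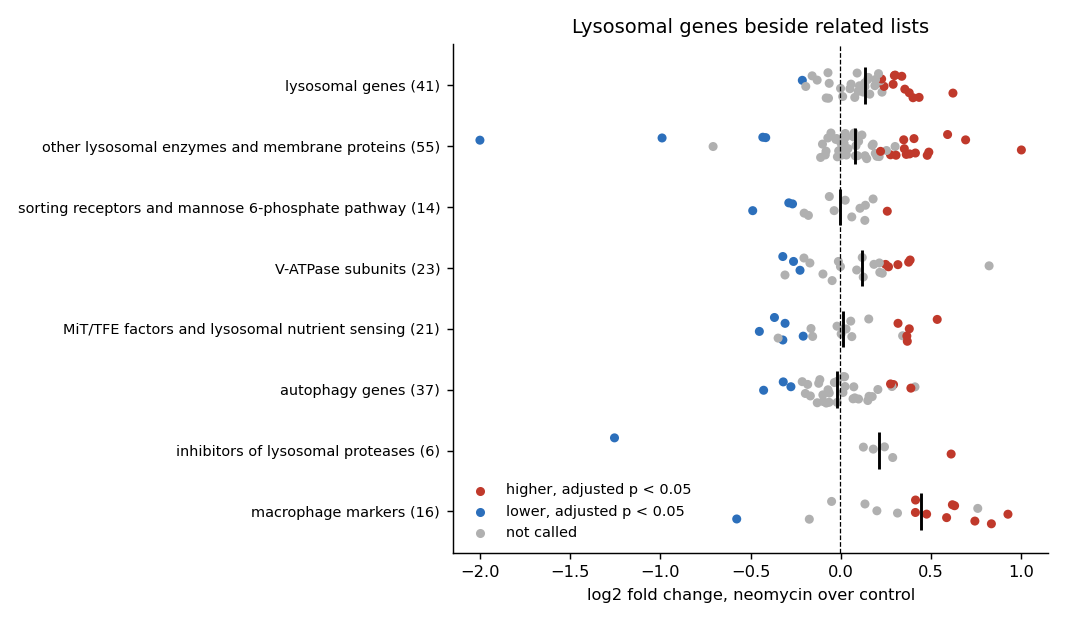
Log2 fold change of every tested gene, neomycin over control, in the lysosomal module (41 genes), in 6 lists of related genes and in the 16 macrophage markers, with genes past an adjusted p-value of 0.05 in red (higher) or blue (lower) and the median of each list as a black bar. The median was 0.13 for the module and 0.44 for the macrophage markers, before the shift of -0.19 in the median of all genes that length-normalised totals bring.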

How the data were processed

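Messenger RNA was measured in 6 libraries, 3 control and 3 neomycin, each a pool of cochlear explants. Per the paper's methods, the authors processed raw reads with Casava 1.8, trimmed them with trimmomatic 0.23, aligned them to UCSC mm10 with Hisat2 and counted them per gene with HTSeq. The authors deposited whole-number counts per gene symbol, without normalization. The strand setting and the handling of reads with several matches are not given in the sources used here, so overlapping genes and near-identical copies may have shared or lost reads. Total counts per library were 50471116 to 66068108. Replicates of a group differed by more than sampling noise (mean chi-square per gene of 13.4 to 45.2), and each was counted as a sample of its own.

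From the counts, genes were filtered with filterByExpr, libraries were scaled with TMM and groups were compared with the quasi-likelihood test of edgeR 4.0.16 (R 4.3.3), with Benjamini-Hochberg adjustment over the 15988 genes tested. Genes were called at an adjusted p-value under 0.05, and counts with the study's further threshold, a fold over 1.5, were given too. CPM are TMM-scaled, and levels per kilobase use the median length of the RefSeq-linked GENCODE transcripts of a gene. A test of a single value by permutation of 3 against 3 libraries cannot go below p = 0.1 (two-sided), and none was run. The SE was derived from the quasi-likelihood test and the SD from the 3 libraries of a group, so both include the spread between pools. Sequences are from RefSeq (GRCm38.p6, the mm10 build). Alternatives were DESeq2 1.42.0, limma-voom (limma 3.58.1), other scalings and filters, removal of the trend on transcript length (lowess, span 0.3), the replicate number as a block, a test against the fold of 1.5 and each library left out. Scaling to length-normalised totals was added after seeing the data. The code was tested on simulated counts. The members and all lists were chosen with earlier results of these data known. Every member is named, those with an adjusted p-value under 0.05 with every library. In each related list the 3 highest and 3 lowest log2 fold changes among genes past that threshold are named. Figures were drawn with matplotlib 3.10.9.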

Additional observations from a re-analysis of the deposited data

How the results depend on the processing

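Across the alternatives run for the 41 genes, 552 of 656 single-gene values kept their direction and side of the threshold, 42 lost the threshold, 30 gained it and 32 turned in direction. None of the 192 values of the 12 called genes turned. The number of genes higher was 11, and was 3 with length-normalised totals (4 lower), a scaling chosen after seeing the data. It was 17 with the replicate block and 6 to 16 with 1 library left out, with 6 without control 2 or neomycin 2 and 7 without neomycin 3. The share of all genes tested that were higher was 12.9%, and 17.4% with the replicate block. It ran from 6.22% to 15.9% with 1 library left out, and was 3.52% (26.9% lower) with length-normalised totals. The number lower was 1, and was 0 with DESeq2, RLE scaling, upper quartile scaling and no filter on low counts, and 0 to 1 with 1 library left out. The gene past the fold of 1.5 was lost, leaving 0, with the gene length correction, with the replicate block with gene length correction, with length-normalised totals and in the test against that fold (glmTreat), and the count was 0 to 1 with 1 library left out. The median log2 fold change was 0.13, was -0.045 with length-normalised totals and 0.11 to 0.20 with 1 library left out, the highest without control 3. Length-normalised totals change the library totals only and shifted all genes nearly alike, with the median of all genes at -0.19. Turns under that scaling follow from this shift. For the other turns and for the losses the cause was not tested.

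Called genes in the related lists, higher and lower together, changed as follows. With the gene length correction there were 2 sorting genes against 4, 2 V-ATPase subunits against 8, 2 nutrient sensing genes against 10 and 4 autophagy genes against 7. Calls also fell over all genes tested, from 12.9% to 8.30% higher and from 16.1% to 11.4% lower. With the replicate block with gene length correction there were 3 V-ATPase subunits and 3 nutrient sensing genes, with 9.98% of all genes tested higher and 12.7% lower. With the replicate block alone there were 13 autophagy genes, and 4 inhibitors against 2, with 17.4% of all genes tested higher and 20.2% lower. With length-normalised totals there were 5 V-ATPase subunits and 11 autophagy genes, while 3.52% of all genes tested were higher and 26.9% lower. With 1 library left out the ranges were 1 to 4 for sorting, 2 to 11 for the V-ATPase, 4 to 11 for nutrient sensing, 5 to 10 for autophagy and 2 to 4 for the inhibitors. The shares of all genes tested then ran from 6.22% to 15.9% higher and from 9.30% to 17.1% lower. Without control 2 there were 2 sorting genes, 3 V-ATPase subunits and 5 nutrient sensing genes, without neomycin 2 there were 1, 2 and 4, and without neomycin 3 there were 1 sorting gene and 5 V-ATPase subunits. In that order, 6.56%, 6.22% and 7.40% of all genes tested were higher, and 9.30%, 9.34% and 11.1% lower. Without control 1 there were 2 sorting genes, and without control 3 or neomycin 1 there were 4 inhibitors. Of all genes tested, 8.93% were higher and 11.3% lower without control 1. The shares were 15.9% and 17.1% without control 3, and 12.3% and 14.8% without neomycin 1. The promoter motif was held by 5 genes, and by 13 with CACGTG in place of TCACGTGA.

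Genes that turned in direction were uncalled ones, and with length-normalised totals all genes shifted nearly alike. With length-normalised totals the log2 fold changes were -0.11 for Lamp2, -0.021 for Cln3, -0.045 for Ctsb, -0.13 for Tpp1, -0.049 for Gla, -0.028 for Gaa, -0.059 for Gusb, -0.047 for Man2b1, -0.090 for Arsb, -0.030 for Idua, -0.078 for Galns, -0.13 for Psap, -0.18 for Asah1, -0.088 for Smpd1 and -0.066 for Arsa. With the gene length correction they were 0.0056 for Manba, 0.051 for Sgsh and 0.010 for Lipa, and with the block as well 0.0043 for Manba and 0.011 for Lipa, and the log2 fold change of Sgsh was 0.054. Lipa was also at 0.0042 with DESeq2 and with RLE scaling, and 0.019 with upper quartile scaling. With 1 library left out, Lipa ran from -0.040 to 0.051, Asah1 from -0.034 to 0.063, Sgsh from -0.22 to 0.079 and Ctsd from -0.17 to 0.011.

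The replicate numbers were not taken as pairs. Correlations between same-numbered libraries of their deviations from the group means were 0.17, 0.03 and 0.09 over all genes tested, control 2 correlated best with neomycin 3, and no label says that a number marks a shared litter or day. Over the 41 genes alone the correlations were 0.71, 0.28 and 0.41. With the replicate block 6 more genes passed, Lamp1 (adjusted p = 0.0357), Ctsa (0.0268), Ctsl (0.0146), Ctsh (0.0303), Neu1 (0.0225) and Tfeb (0.0394). The share of all genes tested that were higher went from 12.9% to 17.4% with that block. With 3 pools a group, changes of the size seen here sit near the threshold, and 7 of the 12 called genes lost it with some library left out.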
